A study of Mus musculus with 6 samples.

Results

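Transcripts of 7 myelin genes, Mbp, Mobp, Mog, Mag, Cnp, Mal and Cldn11, were followed through microglia sorted from mice with 1 or both Bhlhe41 alleles interrupted. The members were all the noncontrol probes whose transcript accession belongs to 1 of these genes, which gave 11 of the 56605 probes and 7 of the 23462 named genes measured. The study examined the transcription factor Bhlhe41 in microglia, and these arrays compared its loss with a heterozygous control. Cells enriched on 40% Percoll from brains of young mice (3 months old in a legend of the study) were sorted as CD45 low, CD11b+ and Cx3cr1+, and their RNA was hybridised in 1 colour to SurePrint G3 Mouse arrays, 1 array per sample. All mice carried the dTomato-Cre allele, a cassette upstream of the Bhlhe41 start codon through which the Bhlhe41 promoter drives dTomato and Cre while translation of Bhlhe41 from that allele ends. The control group was Bhlhe41 dTomato-Cre/+ (labelled Ctrl, B41HET below, n = 3) and the other was Bhlhe41 dTomato-Cre/dTomato-Cre (labelled KO, B41KO below, n = 3), both on the C57BL/6 background and sex-matched according to the Methods. No mouse with both Bhlhe41 alleles intact was measured, each sample was a pool of several mice, and the reporting summary of the study gives a sort purity that is high but short of complete.

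Myelin is the spiral of membrane that oligodendrocytes wrap around axons. Mbp and Mobp encode cytoplasmic proteins that hold its inner faces together, Mog and Mag encode immunoglobulin-type proteins of its outermost and innermost surfaces, and Cnp, Mal and Cldn11 encode a cytoskeleton-binding enzyme, a raft proteolipid and the tight junction protein of the sheath. Microglia engulf myelin debris, but they do not make the sheath.

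All 11 microglia markers read, among them P2ry12 and Tmem119, were well above background on all 6 arrays. Their summed linear signal was 164691 to 177585 in B41HET and 158910 to 162181 in B41KO, and without the brightest of them, the chemokine receptor Cx3cr1, the ranges overlapped, at 133276 to 143174 and 132232 to 133520. Bhlhe41 itself was not lower in B41KO. Its brighter probe gave log2 signals of 7.95, 7.87 and 7.65 in B41HET against 8.56, 7.84 and 8.21 in B41KO (difference 0.38 ± 0.20 SE, adjusted p = 0.330 in limma), so the transcript does not check the labels of an allele that ends translation. All 6 arrays lay on 1 slide, with the B41HET arrays and B41KO replicate 1 in row 1 and the other two B41KO arrays in row 2, and 70.04% to 75.5% of probes were well above background on each array.

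Bhlhe41 belongs to the basic helix-loop-helix repressors that bind E-box letters, so the windows from 250 bases before to 50 after the start sites of the members were read from the RefSeq promoter table (GRCm38.p6). It holds 8 windows for 6 of the genes. The letters CACGTG were in none of them, as against 7.15% of all 32851 promoters of that length. The looser CANNTG, which contains CACGTG and reads the same on both strands, was in 4 windows of 2 genes, Mag and Cnp, as against 72.3% of all promoters. The SOX-type letters ACAAAG, on either strand, were in 4 windows of 3 genes (18.7% of all promoters), and the Mobp window held 6 of them. The first 2 windows are shown for the genes with E-box letters, with CANNTG in capitals, and the third for the gene with the repeated SOX-type letters, which stand in capitals as CTTTGT, their form on the opposite strand. A match of letters is a description of the window and not of binding.
Mag, chr7:30914814-30915113, minus strand: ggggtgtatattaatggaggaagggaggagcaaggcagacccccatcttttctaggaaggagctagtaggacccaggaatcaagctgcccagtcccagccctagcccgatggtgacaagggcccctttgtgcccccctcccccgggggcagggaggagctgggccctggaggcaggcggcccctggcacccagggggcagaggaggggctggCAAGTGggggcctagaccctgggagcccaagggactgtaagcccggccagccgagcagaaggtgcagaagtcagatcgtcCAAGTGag
Cnp, chr11:100574689-100574988, plus strand: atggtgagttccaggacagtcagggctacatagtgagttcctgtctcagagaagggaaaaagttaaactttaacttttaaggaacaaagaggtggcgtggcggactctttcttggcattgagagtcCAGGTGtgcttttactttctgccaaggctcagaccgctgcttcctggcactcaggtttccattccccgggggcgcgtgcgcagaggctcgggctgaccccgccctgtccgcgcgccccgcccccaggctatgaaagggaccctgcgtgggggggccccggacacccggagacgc
Mobp, chr9:120149492-120149791, plus strand: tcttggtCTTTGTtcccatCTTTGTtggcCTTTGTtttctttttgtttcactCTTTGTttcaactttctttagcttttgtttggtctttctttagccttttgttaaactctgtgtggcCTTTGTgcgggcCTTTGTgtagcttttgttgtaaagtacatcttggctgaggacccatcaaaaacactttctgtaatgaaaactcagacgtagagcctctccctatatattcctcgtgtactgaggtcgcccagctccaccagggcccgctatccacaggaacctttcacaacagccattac

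None of the 11 myelin probes differed between the genotypes at the threshold of the Methods, an adjusted p of 0.05 or less and a log2 fold change of at least 0.5 in either direction, which 5.09% of all 56601 tested probes passed. Their adjusted p-values in limma ran from 0.0644 to 0.957. At an unadjusted p under 0.05 there were 4 of the 11 (36.4%), 3 lower in B41KO and 1 higher, against 23% of all probes (12.1% lower and 10.8% higher). In 4 of the 11 the genotypes did not overlap, 3 with B41KO below and 1 with it above, against 29.6% of all probes (15.3% below and 14.4% above). The median log2 fold change was -0.02 over the 11 and 0.01 over all probes. The median of its absolute size was 0.27 over the 11 and 0.19 over all probes. Of the 11, 10 were well above background on all 6 arrays, and the second Mobp probe on none. Log2 fold changes below are B41KO minus B41HET with their standard errors, and log2 signals are quantile-normalized. In a bulk sample, fewer cells of a type and less RNA per cell cannot be told apart.

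**Figure D1:**
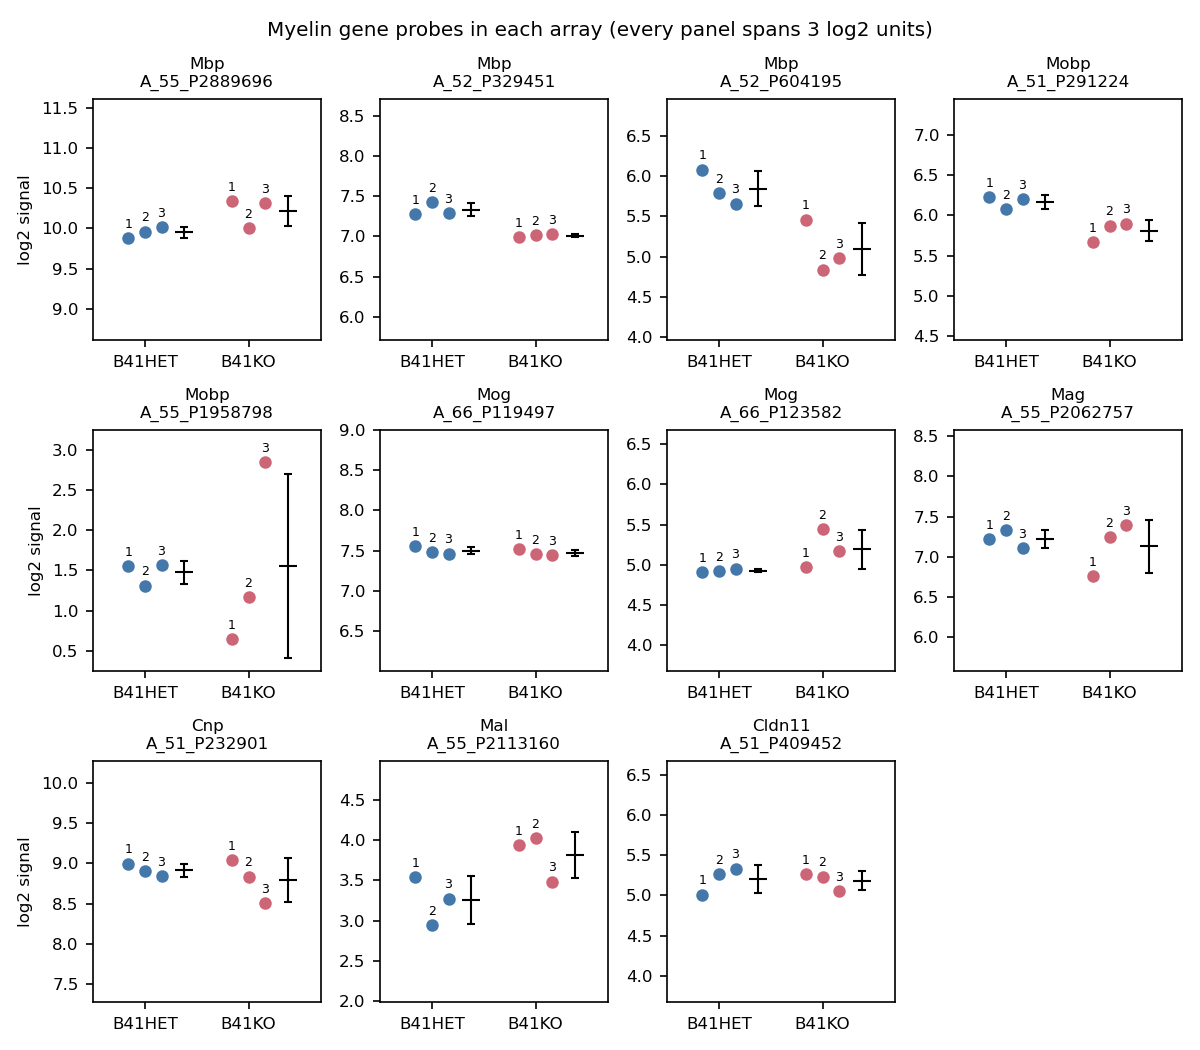
Log2 signal (vertical axis) of the 11 probes of the 7 myelin genes in each of the 6 arrays, with replicate numbers beside the points and the mean ± SD of each genotype (n = 3) at its right. Every panel spans 3 log2 units, and B41KO lies wholly below B41HET for Mbp A_52_P329451, Mbp A_52_P604195 and Mobp A_51_P291224, and wholly above it for Mog A_66_P123582.

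Mbp, which encodes myelin basic protein, was measured by 3 probes, and they did not move in 1 direction. The brightest (A_55_P2889696) gave log2 signals of 9.88, 9.96 and 10.01 in B41HET and 10.33, 10.004 and 10.31 in B41KO. Replicates 1 and 3 of B41KO were above every B41HET sample, and replicate 2 was among them. The difference of 0.27 ± 0.11 had a 95% interval of -0.01 to 0.55 (adjusted p = 0.238 in limma). In the deposited intensities, before normalization between arrays, the genotypes overlapped at 1022 to 1146 in B41HET and 1016 to 1162 in B41KO.

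The second Mbp probe (A_52_P329451), placed on the same accession, gave 7.28, 7.43 and 7.29 in B41HET and 6.99, 7.01 and 7.03 in B41KO. Here each B41KO sample was below each B41HET sample, and the B41KO samples differed little among themselves. The difference was -0.32 ± 0.07, with an interval of -0.51 to -0.14 and the lowest adjusted p of the 11 probes (0.0644 in limma). The adjusted p was 0.0125 under normexp, 0.0332 with trend and robust variance and 0.0492 under the filter on dim probes, with log2 fold changes of -0.29, -0.32 and -0.32 that stayed short of the fold threshold, and 0.261 with slide row as a block. The third Mbp probe (A_52_P604195), placed on another Mbp accession, gave 6.08, 5.79 and 5.66 in B41HET and 5.46, 4.84 and 4.98 in B41KO. Again each B41KO sample was below each B41HET sample, with a larger difference of means and more spread in both genotypes. The difference was -0.75 ± 0.20 (interval -1.24 to -0.26, adjusted p = 0.0903 in limma). It was -0.25 under normexp, a smaller size than those of the other two Mbp probes under that setting (-0.29 and 0.30). When probes not above background on at least 3 arrays were left out before adjustment, it passed the threshold, with an adjusted p of 0.0432. With slide row as a block, which leaves B41KO replicate 1 against the B41HET samples, it was -0.38 (adjusted p = 0.451).

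The distance between Mbp probes within an array does not depend on how arrays are shifted against each other. The brightest minus the third was 3.801, 4.17 and 4.36 in B41HET and 4.87, 5.17 and 5.33 in B41KO on the log2 scale. The distance was larger in each B41KO array, by 1.02 on average, with a gap of 0.52 between the groups. The brightest minus the second was 2.60, 2.53 and 2.72 in B41HET and 3.35, 2.99 and 3.29 in B41KO. This distance too was larger in each B41KO array, by 0.59 on average. Both had an exact two-sided permutation p of 0.1 (0.2 after Benjamini-Hochberg adjustment over the 4 probe pairs compared), and 0.1 is the smallest p that 3 against 3 allows. The second minus the third overlapped between the genotypes (difference 0.43, exact permutation p = 0.3). So did the other pair compared, the brighter minus the dimmer Mog probe (difference -0.29, exact permutation p = 0.2). That Mog pair stood apart in values not normalized between arrays (-0.37) and under normexp (-0.20). The first 2 differences kept the genotypes apart in values not normalized between arrays (0.91 and 0.54), in the authors' processed values (1.08 and 0.64), and after normexp background correction (0.56 and 0.59), all chosen after seeing the data. Their sizes were 0.86 to 1.14 and 0.52 to 0.70 with 1 sample left out, and 0.77 and 0.73 in slide row 1, where B41KO replicate 1 is the only B41KO array. These pairs were compared after the single probes had been seen to differ in direction, so the distances are a description, and which transcripts each probe binds was not tested.

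**Figure D2:**
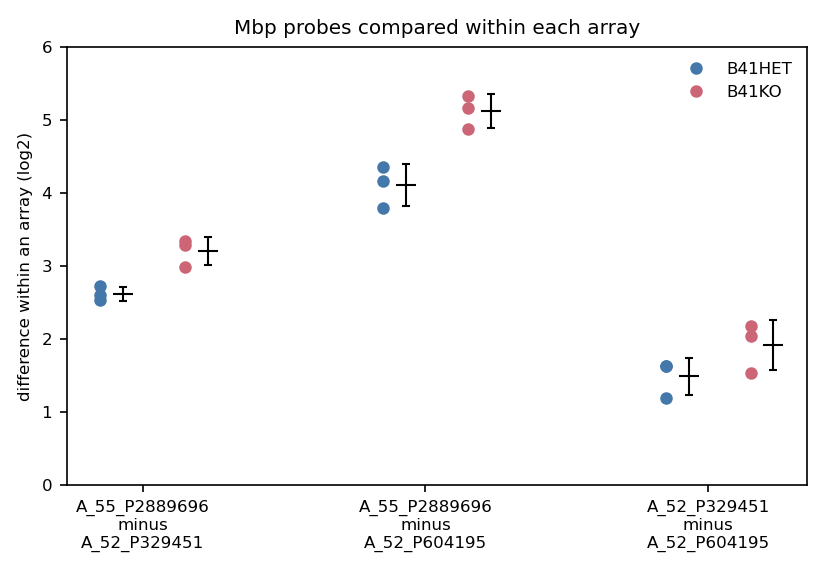
Difference in log2 signal between pairs of Mbp probes within each array (vertical axis, log2 units) for B41HET (blue) and B41KO (red), with the mean ± SD of 3 arrays beside the points. The genotypes stand apart in the first and second pairs, which hold the brightest probe, and overlap in the third.

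Mobp, whose product also sits in compact myelin, was measurable with 1 of its 2 probes. The brighter (A_51_P291224) gave 6.23, 6.07 and 6.20 in B41HET and 5.67, 5.87 and 5.90 in B41KO. Each B41KO sample was below each B41HET sample, with replicate 1 lowest. The difference of -0.36 ± 0.10 (interval -0.59 to -0.12, adjusted p = 0.0940 in limma) did not pass the threshold, and it was -0.11 after normexp background correction. The other Mobp probe (A_55_P1958798) did not rise well above background in any of the 6 samples, so no fold is given for it.

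Mog, the outermost myelin glycoprotein, was measured by 2 probes on 1 accession. The brighter (A_66_P119497) gave 7.55, 7.48 and 7.46 in B41HET and 7.52, 7.46 and 7.45 in B41KO. The genotypes overlapped, and this was the narrowest interval of all members, -0.19 to 0.14 around -0.02 (adjusted p = 0.872 in limma). The dimmer (A_66_P123582) gave 4.91, 4.92 and 4.95 in B41HET and 4.97, 5.44 and 5.17 in B41KO. All B41KO samples were above the B41HET samples here, replicate 1 only just. In the deposited intensities, before normalization between arrays, the genotypes overlapped at 29.8 to 33.8 in B41HET and 28.5 to 44.4 in B41KO. The difference of 0.27 ± 0.13 did not pass the test (interval -0.06 to 0.59, adjusted p = 0.304), and within slide row 1 it was 0.04.

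Mag, the myelin-associated glycoprotein next to the axon, gave 7.22, 7.33 and 7.11 in B41HET and 6.76, 7.24 and 7.39 in B41KO. Replicate 1 of B41KO was the lowest of the 6 arrays and replicate 3 the highest, so the genotypes overlapped fully. The difference was -0.09 ± 0.18 (interval -0.53 to 0.35, adjusted p = 0.821). Without B41KO replicate 1 it was 0.10, and slide row as a block, a fit in which only that B41KO replicate bears on genotype, gave -0.46 (adjusted p = 0.231). Cnp, the enzyme used as a marker of myelinating cells, gave 8.996, 8.90 and 8.84 in B41HET and 9.04, 8.83 and 8.50 in B41KO. Replicate 3 of B41KO was the lowest and replicate 1 the highest. The difference was -0.12 ± 0.15 (interval -0.49 to 0.25, adjusted p = 0.696), and without B41KO replicate 3 it was 0.02.

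Mal, the raft proteolipid, had the only measurable probe with a higher value at an unadjusted p under 0.05. It gave 3.54, 2.94 and 3.27 in B41HET and 3.93, 4.02 and 3.48 in B41KO. Replicates 1 and 2 of B41KO were above every B41HET sample, and replicate 3 was below B41HET replicate 1. The difference of 0.56 ± 0.21 had an interval of 0.04 to 1.08 (adjusted p = 0.189 in limma) at the dimmest of the measurable probes, with deposited intensities of 8.47 to 12.1 in B41HET and 10.6 to 16.978 in B41KO. After normexp with an offset of 50 it was 0.11. Cldn11, the tight junction claudin of the sheath, gave 5.01, 5.26 and 5.33 in B41HET and 5.26, 5.23 and 5.05 in B41KO. The genotypes overlapped, at -0.02 ± 0.12 (interval -0.31 to 0.27, adjusted p = 0.948).

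**Figure D3:**
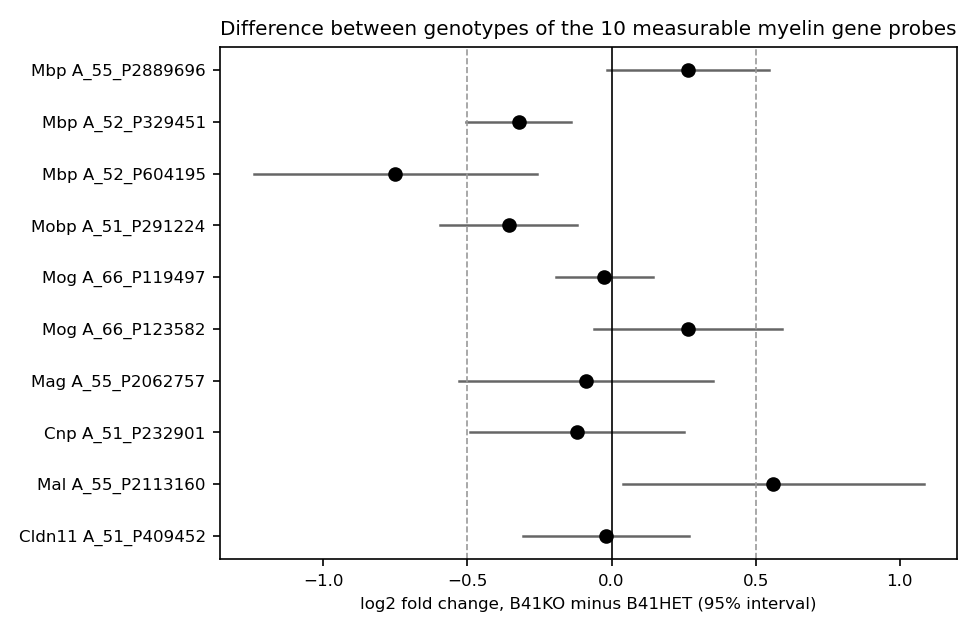
Log2 fold change, B41KO minus B41HET (horizontal axis), with 95% intervals from limma for the 10 measurable myelin gene probes, and dashed lines at -0.5 and 0.5. The intervals of the brightest Mog probe, Cnp and Cldn11 lie within the dashed lines, while the Mbp probes lie on both sides of 0.

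Set side by side on their brightest probes, the 7 genes had no common direction. Differences were above 0 for 2 of them (Mbp and Mal) and below 0 for the other 5, and the intervals of 3 (Mog, Cnp and Cldn11) lay within 0.5 of 0. The mean of the 7, each centred on its own mean over the arrays, was 0.02, -0.05 and -0.01 in B41HET and 0.03, 0.05 and -0.03 in B41KO on the log2 scale. The genotypes overlapped in this mean, with a difference of 0.03. The summed linear signal of the 7 probes was 1909 to 1931 in B41HET and 1923 to 2214 in B41KO. Mbp made up 49.4% to 61.1% of it, and without Mbp the sum was 897 to 967 in B41HET and 809 to 924 in B41KO.

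Nor did the probes follow each other from array to array. Over the 6 arrays, which share 1 slide and 1 normalization, 21 of the 45 pairs of the 10 measurable probes had a Pearson correlation above 0 and 24 below it, with a median of -0.07. The highest was 0.81, between the second Mbp probe and the brighter Mobp probe, and the lowest -0.90, between the third Mbp probe and the dimmer Mog probe. The brightest Mbp probe ran opposite to the second Mbp probe (-0.72) and to Mobp (-0.80). With 6 arrays in 2 genotypes these are descriptions and carry no test.

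The 10 genes whose arrays were most like the mean of the 7, of 17200 ranked, were Klhl20, Fkbp3, Pon3, Anxa11, Cmc1, Atp13a3, Eif2s2, Zfp335, Eme1 and Uba6, with Pearson correlations of 0.989 down to 0.973 over the 6 arrays. None of the 10 passed the threshold, and none is in the myelin and oligodendrocyte lists.

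Other genes of myelin and its cells were read from 6 lists with 77 genes in all, each on its brightest probe. Of these, 69 were well above background on at least 1 array, and 2 of the 69 (2.9%) passed the threshold, both of them lower in B41KO, against 6.42% (4.79% lower and 1.63% higher) of the 19267 named genes that were above background on at least 1 array. With the dim genes kept on both sides, 3 of the 77 (3.9%) passed it, all lower, against 5.49% (4.05% lower and 1.44% higher) of all 23462 genes. The 69 had a median log2 fold change of -0.02, with 32 above 0 and 37 below it, and the median over the 19267 genes was 0.01. The 8 genes above background on no array were Gpr37, Opalin, Adam22, Fa2h, Nkx2-2, Anln, Il33 and Hhip. Anln passed the threshold among them, at signals below background in both genotypes, and is given no fold.

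In compact myelin and the myelin membrane, 1 of 9 measurable genes fell, with a median of -0.05 over the 9. Cd82, a tetraspanin made by immune cells as well as oligodendrocytes, gave 12.15, 11.94 and 12.04 in B41HET and 11.46, 11.24 and 11.39 in B41KO. It fell by 0.68 ± 0.10 on the log2 scale (adjusted p = 0.0197 in limma) on its brightest probe, the only 1 of 4 called. The call was lost under 8 of 14 alternatives, among them each leaving out of 1 sample, at -0.73 to -0.58. Both Ermn, which encodes a cytoskeletal protein of oligodendrocytes, and the tetraspanin Cd9, named after their values were seen, had every B41KO sample above every B41HET sample. Ermn was at 0.57 ± 0.13 (adjusted p = 0.0691 in limma) and passed the threshold as higher under the filter on dim probes (adjusted p = 0.0348) and with trend and robust variance (adjusted p = 0.0339). Cd9 was at 0.39 ± 0.07 (adjusted p = 0.0392), short of the fold threshold.

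In myelin lipid synthesis, 1 of 13 measurable genes fell, and it was Fdft1, the squalene synthase of the cholesterol pathway that all cells use. Its brightest probe, the only 1 of 2 called, gave 11.15, 11.01 and 10.84 in B41HET and 9.79, 9.81 and 9.86 in B41KO. The genotypes were far apart for their spread, at -1.18 ± 0.10 (adjusted p = 0.00543 in limma), and with slide row as a block the value was -1.21 (adjusted p = 0.0590). The median of the 13 was -0.11.

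None of the 8 measurable genes of the paranode, node and axon contact passed the threshold, nor did any of the 11 of oligodendrocyte transcription, the 16 others of mature oligodendrocytes or the 12 of precursors and newly formed oligodendrocytes. Their medians were 0.08, -0.14, -0.02 and -0.01 on the brightest probes. The dimmer of the 2 probes of Sirt2, a gene of the mature list, was called. The lowest p among the paranodal genes belonged to the adhesion molecule Ncam1, at -0.49 ± 0.11 (adjusted p = 0.0559 in limma). Among the transcription genes it belonged to Tcf7l2, a Wnt pathway factor, at -0.34 ± 0.07 (adjusted p = 0.0519). Among the mature genes that were measurable it belonged to the lysophospholipase Enpp2, at 0.30 ± 0.06 (adjusted p = 0.0506), and among the precursor genes to Enpp6, at -0.36 ± 0.13 (adjusted p = 0.169).

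**Figure D4:**
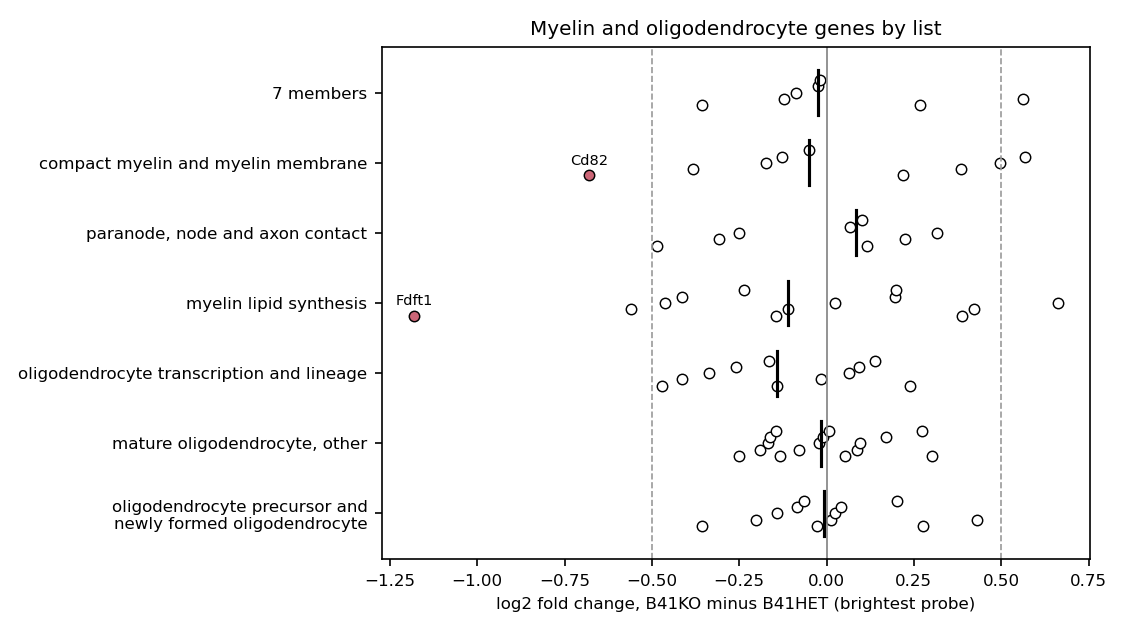
Log2 fold change, B41KO minus B41HET (horizontal axis), of each gene on its brightest probe for the 7 members and 6 related lists, without the 8 genes above background on no array. Filled points passed the threshold, black bars are list medians, dashed lines stand at -0.5 and 0.5, and the called genes Cd82 and Fdft1 lie left of -0.5.

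Markers of other cells that a brain sort can carry did not move as 1 block. Of 12 astrocyte markers, all above background on all 6 arrays, Clu rose by 0.54 ± 0.07 (adjusted p = 0.0132 in limma). The Clu call was lost under 7 of 14 alternatives, among them slide row as a block (adjusted p = 0.106), normexp (0.38 on the log2 scale) and the leaving out of any 1 B41HET sample or of B41KO replicate 1. The summed linear signal was 2448 to 2511 in B41HET and 2676 to 2904 in B41KO. The glutamate transporter Slc1a3 made up 36.2% to 44.7% of it, and without Slc1a3 and Clu the ranges overlapped, at 1262 to 1302 in B41HET and 1235 to 1541 in B41KO. Of 12 neuron markers, 6 were above background on no array (Syt1, Stmn2, Nefl, Slc17a7, Gad1 and Gad2) and none passed the threshold. Snap25 alone made up 96.0% to 96.6% of the summed neuron signal, and without it the sum was 737 to 822 in B41HET and 792 to 873 in B41KO.

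Of 12 endothelial markers, Ly6c1 (-1.79 ± 0.08, adjusted p = 0.00107) and Pecam1 (-1.68 ± 0.11, adjusted p = 0.00307) fell, while Flt1, Cdh5, Itm2a, Tek and Emcn were above background on no array. Bsg alone made up 89.6% to 95.3% of the summed endothelial signal, and without it the sum was 1362 to 1483 in B41HET and 629 to 667 in B41KO. Without Ly6c1 and Pecam1 as well, the sum was 336 to 339 in B41HET and 316 to 327 in B41KO, and the other measurable markers did not pass the test (Cldn5 -0.13, Kdr -0.01, Slco1a4 0.04, Slc2a1 -0.05 and Bsg 0.01). Of 6 border macrophage markers, 4 fell, from -0.72 ± 0.12 for Pf4 to -1.92 ± 0.35 for F13a1, with Cd163 and Cbr2 between them, and the summed signal was 287 to 323 in B41HET and 128 to 138 in B41KO. F13a1 was well above background on only 1 of the B41KO arrays. The other two, Mrc1 and Lyve1, did not pass the test (adjusted p = 0.0744 and 0.0975 in limma), but both had every B41KO sample below every B41HET sample and were well above background on all 3 B41HET arrays and on no B41KO array. Since neither gene was well above background in B41KO, no fold is given for them. Of 14 alternatives, the call was lost under 9 for Pf4 (each sample left out among them, and -0.38 under normexp), 8 for F13a1 (-0.48 under normexp), 2 for Cbr2 (slide row as a block, adjusted p = 0.0682, and the replicate block) and 1 for Cd163 (the replicate block). Normexp also brought Cbr2 to -0.73 and Cd163 to -0.53. Of the 2 Cd163 probes, only the brighter was called.

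Of 6 erythroid genes, Hba-a2, Hbb-bt and Alas2 rose, by 1.33 ± 0.07, 1.35 ± 0.10 and 0.55 ± 0.10. The Alas2 call was lost under 9 of 14 alternatives, among them each leaving out of 1 sample, slide row as a block (adjusted p = 0.215) and normexp (0.32 on the log2 scale), and those of Hba-a2 and Hbb-bt under 1, the replicate block. Hba-a1 made up 88.3% to 93.8% of the summed erythroid signal, and without it the sum was 2126 to 2234 in B41HET and 5071 to 5401 in B41KO, or 148 to 179 and 177 to 216 without the 3 called genes as well. Of the microglia markers, Fcrls fell by 0.76 ± 0.07 on the log2 scale (adjusted p = 0.00584), a call lost with slide row as a block (adjusted p = 0.0619) and the replicate block. Over all 59 measured markers, 11 passed the threshold (18.6%), against 5.49% of the 23462 genes. Of the 48 markers above background on at least 1 array, 11 passed it (22.9%), against 6.42% of such genes. The lists were chosen with earlier results of these data known, so these shares are a description. The part of any of these cells in the myelin gene signals was not tested.

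Across the 14 alternative settings, the sign held for all 3 Mbp probes, the brighter Mobp probe, the dimmer Mog probe and Mal, and turned under at least 1 setting for the brightest Mog probe, Mag, Cnp and Cldn11. Scaling the arrays by their 75th percentile in place of quantile normalization moved the median log2 fold change of all probes from 0.01 to 0.13 and the share of calls that were higher in B41KO from 33.7% to 46.1%. Under that scaling, as under each other alternative except the filter on dim probes, none of the 11 probes passed the threshold.

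**Figure D5:**
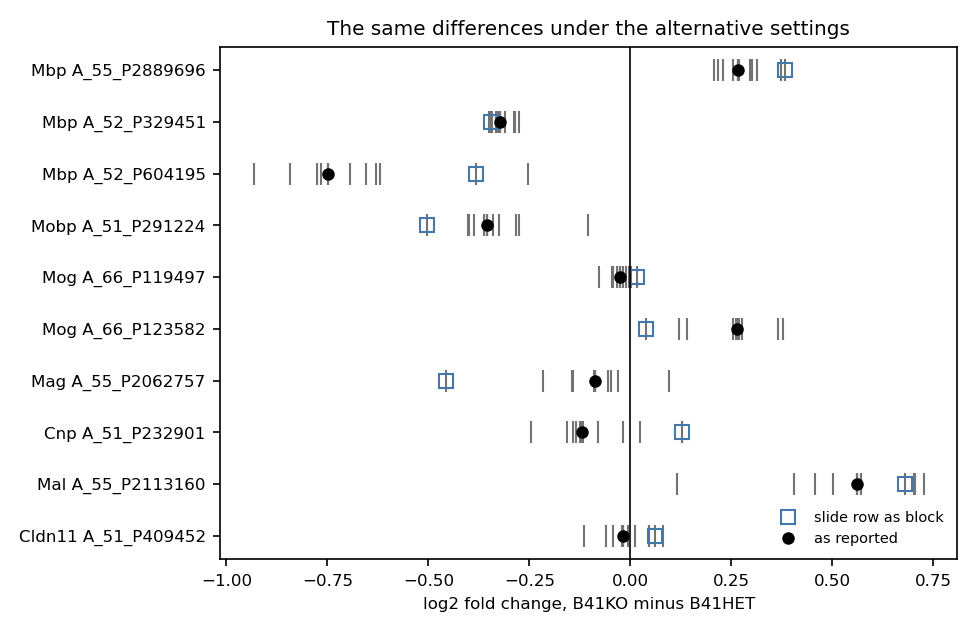
Log2 fold change, B41KO minus B41HET (horizontal axis), of the 10 measurable myelin gene probes as reported (black points), under the 14 alternatives (grey ticks) and with slide row as a block (blue squares). The Mbp probes, Mobp A_51_P291224, Mog A_66_P123582 and Mal stay on 1 side of 0, and Mog A_66_P119497, Mag, Cnp and Cldn11 cross it.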

How the data were processed

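RNA of 6 sorted microglia samples, 3 B41HET and 3 B41KO, was hybridised to 1-colour Agilent arrays. The authors deposited scanner output from Feature Extraction 11.5.1.1, named in the file headers, whose processed intensities are background-subtracted within arrays and not normalized between them, and a table of log2 values for all arrays, of unstated scale and with equal quantiles, used as an alternative. Control spots were left out (59305 of 62976 spots kept). Log2 processed intensities were quantile-normalized as the Methods name, outlier spots (95 to 136 per array) left out, and spots averaged per probe. Of 56605 probes, 56601 with values in at least 2 samples per genotype were tested with limma 3.58.1 in R 4.3.3 (with the data.table package, version 1.17.8), with genotype as the only term and Benjamini-Hochberg adjustment over all tested probes, and no filter on dim probes. The model was checked on simulated data. Of the probes, 33767 were named through unversioned accessions in a RefSeq table (GRCm38.p6). The design is on mm9, so probe coordinates are not given. Arrays carry no read depth, and 6 of them limit the precision. The labels call samples biological replicates.

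Named genes were every member probe, the called genes of each list (at most the 4 with the largest fold change) or the one with the lowest p, the 10 genes most like the members' mean, and Bhlhe41. Enpp2 was named after its values were seen, since Anln, which the rule gives, was below background. Some genes of the lists are not reported here. Members and lists were chosen with earlier results of these data known. The brightest probe stood for a gene. For Cers2, Sirt2, Aqp4 and Hba-a1, named after their values were seen, only a dimmer probe was called. Alternatives were scaling by the 75th percentile, the authors' values, normexp with an offset of 50 on median signals, a filter that kept only probes above background on 3 or more arrays, the outlier spots put back, trend and robust variance, replicate and slide row blocks, no fold threshold, each sample left out, and the mean over a gene's probes. Within-array probe differences used an exact permutation test. Plots come from matplotlib 3.10.9 (Python 3.11.15).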

Additional observations from a re-analysis of the deposited data

How the results depend on the processing

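None of the 11 myelin probes passed the threshold under the alternatives except the filter on dim probes, under which 1 did, Mbp A_52_P604195. The number of all probes called was 2883, with 1501 under normexp, 448 with slide row as a block and 796 to 1524 with 1 sample left out, the lowest without B41HET replicate 2. The related myelin and oligodendrocyte genes called were 3, Anln included, with 1 with slide row as a block and 2 with each sample left out. All 3 were lower, and 1 gene was called higher under the filter on dim probes (Ermn), with trend and robust variance (Ermn) and with no fold threshold (Cd9). The cell type markers called were 11, with 7 under normexp, 5 with slide row as a block and 7 to 9 with 1 sample left out, the lowest without any 1 of the B41HET samples. The causes of these changes were not tested.

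Deviations of same-numbered B41HET and B41KO samples correlated at 0.131, -0.007 and 0.166 over 38226 probes. Those of differently numbered samples correlated at -0.194 to 0.084, so whether the numbers pair the samples was not settled. With the replicate block, 42 of all probes, 0 of the myelin probes, 0 of the related genes and 0 of the cell type markers were called.

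Signs turned for probes with differences near 0. With slide row as a block, Mog A_66_P119497 was 0.0176, Cnp 0.13 and Cldn11 0.0624, and with the 75th percentile shift Cldn11 was 0.0802. With 1 sample left out, Mog A_66_P119497 ran from -0.0461 to 0.0017, Mag from -0.22 to 0.10, Cnp from -0.25 to 0.0244 and Cldn11 from -0.12 to 0.0465. Under normexp Mal was 0.11 and Mbp A_52_P604195 -0.25, and the cause was not tested. Signal over background leaves no fold for the dimmer Mobp probe and for Anln.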
